A study of Mus musculus with 29 samples.

Results

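The mitochondrial ribosomal proteins are the nuclear-encoded proteins of the ribosome inside mitochondria, and their genes were taken here as the rows of the mouse heart expression table whose symbol begins with Mrpl (large subunit) or Mrps (small subunit) followed by a digit. The rule found 76 genes of the 29955 in the table. All 76 had a mean of at least 0.5 FPKM (fragments per kilobase of transcript, scaled to the mapped fragments of the library), which 12759 genes of the table had. By their known place in the ribosome, 49 of the proteins belong to the large subunit and 26 to the small subunit. The last, Mrps36, carries the name but is now known as a part of the 2-oxoglutarate dehydrogenase complex.

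Heart failure (HF) was induced in mice labelled C57BL6 (C57BL/6J in the methods of the study) that were 3 months old at the start. The HF mice drank water with 0.3 mg/ml of the nitric oxide synthase inhibitor L-NAME and 1% NaCl, and pumps delivered angiotensin II at 0.7 mg/kg per day for 28 days, begun after the first week. Both ended at week 5, and the hearts then recovered without agents until week 19. RNA of the ventricles was sequenced after poly(A) selection in 29 labelled samples, of which the values of 24 libraries could be placed in a group: HF week 3 (n = 2), HF week 5 (n = 3), Recovery weeks 7 (n = 2), 9 (n = 2), 11 (n = 3), 13 (n = 2) and 19 (n = 5), and Control week 19 (n = 5). These controls were sampled at week 19, so the HF groups were compared with older mice, and age and HF cannot be told apart in those comparisons. The tissue is labelled as whole ventricle, while the methods of the study describe frozen apical pieces.

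Mitochondrial ribosomes translate the few messenger RNAs of the mitochondrial genome, all of which encode subunits of the respiratory chain and of ATP synthase. Their RNA is made in the mitochondrion, whereas all their proteins are encoded in the nucleus, made on cytosolic ribosomes and imported. Some of the proteins have a counterpart in bacterial ribosomes and others are found only in mitochondria. Heart muscle, which is rich in mitochondria, is among the tissues affected when a gene such as MRPL3, MRPL44 or MRPS22 is mutated in humans. In whole tissue, fewer cells of a type and less RNA per cell cannot be told apart.

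The libraries were not all alike. The genes above 0 numbered 12816 in HF week 3 library 1 and 16339 to 18091 in the others, and this was also the only library whose low values showed no steps of whole fragments. From those steps the relative depth of the other 23 libraries was 0.754 to 1.39. The cardiomyocyte marker Tnnt2 (cardiac troponin T) was at 4391 and 5662 FPKM in the HF week 3 libraries, the lowest of all, and between 6211 and 9465 FPKM in the other 22. Other cardiomyocyte markers were mixed in the HF week 3 libraries. Ldb3 was at 97.1 and 226 FPKM, against 477 to 628 in Control week 19, and Myom1 at 253 and 150, against 152 to 176. Atrial genes, which ventricle should express little, were high in HF week 3 and in HF week 5 library 1, and to a lesser extent in HF week 5 library 2. Their 4 markers summed to 89.6 to 349 FPKM in Control week 19, to 7737 and 14050 in HF week 3 and to 2229, 2515 and 81731 in HF week 5. The atrial light chain Myl7 was at 18388 FPKM in HF week 5 library 1, at 152 in library 2 and at 6.16 in library 3. In HF week 5 libraries 2 and 3 the sum was mostly Nppa, at 2100 and 2214 FPKM. Failing ventricle is itself known to induce this gene. Sln and Myl4 were at 147 and 116 FPKM in library 2 and at 1.28 and 8.05 FPKM in library 3. In Control week 19 they reached at most 0.988 and 6.63 FPKM. Nppa was listed at 0 in both HF week 3 libraries. The 5 epicardial and mesothelial markers summed to 1.99 to 3.28 FPKM in the controls, 11.4 to 83.1 in HF week 5 and 72.9 to 231 in HF week 3. The counts of called genes and the medians of the HF comparisons are therefore also given without HF week 3 library 1 or HF week 5 library 1. Neither setting is free of atrial genes. HF week 3 library 2, then the only one of its group, had the higher atrial sum of HF week 3 and the highest epicardial sum. HF week 5 library 2 also stays in.

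Across the 24 libraries the members spanned a wide range of levels. FPKM is divided by transcript length, but the levels still went with length. In Control week 19 the members with transcripts up to their median length of 953 bases summed to 7035 FPKM on average, and the longer ones to 2545. The part of transcript length in the order of the members was not tested. The highest mean was that of Mrps21, a small subunit protein with a bacterial counterpart, at 1025 FPKM, followed by Mrpl42 at 759.8, Mrpl33 at 492 and Mrpl30 at 440 FPKM. The lowest were Mrpl19 at 5.68, Mrpl1 at 7.01, Mrpl35 at 9.44 and Mrps2 at 11.1 FPKM. In Control week 19 the highest group mean was 176 times the lowest although the proteins occur once in each ribosome, or in a few copies in the case of Mrpl12, the only multicopy member. Mrps21 and Mrpl42, the highest neighbours in that order, overlapped in Control week 19: Mrps21 was at 1032, 1044, 852, 1006 and 1353 FPKM and Mrpl42 at 814, 863, 739, 759 and 1129 FPKM. The order itself was much the same in every group. Spearman's rho of the 76 group means with those of Control week 19 was 0.926 in HF week 3, 0.986 in HF week 5 and 0.992 to 0.998 in the recovery groups, a description over genes that share libraries and transcript lengths.

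**Figure D1:**
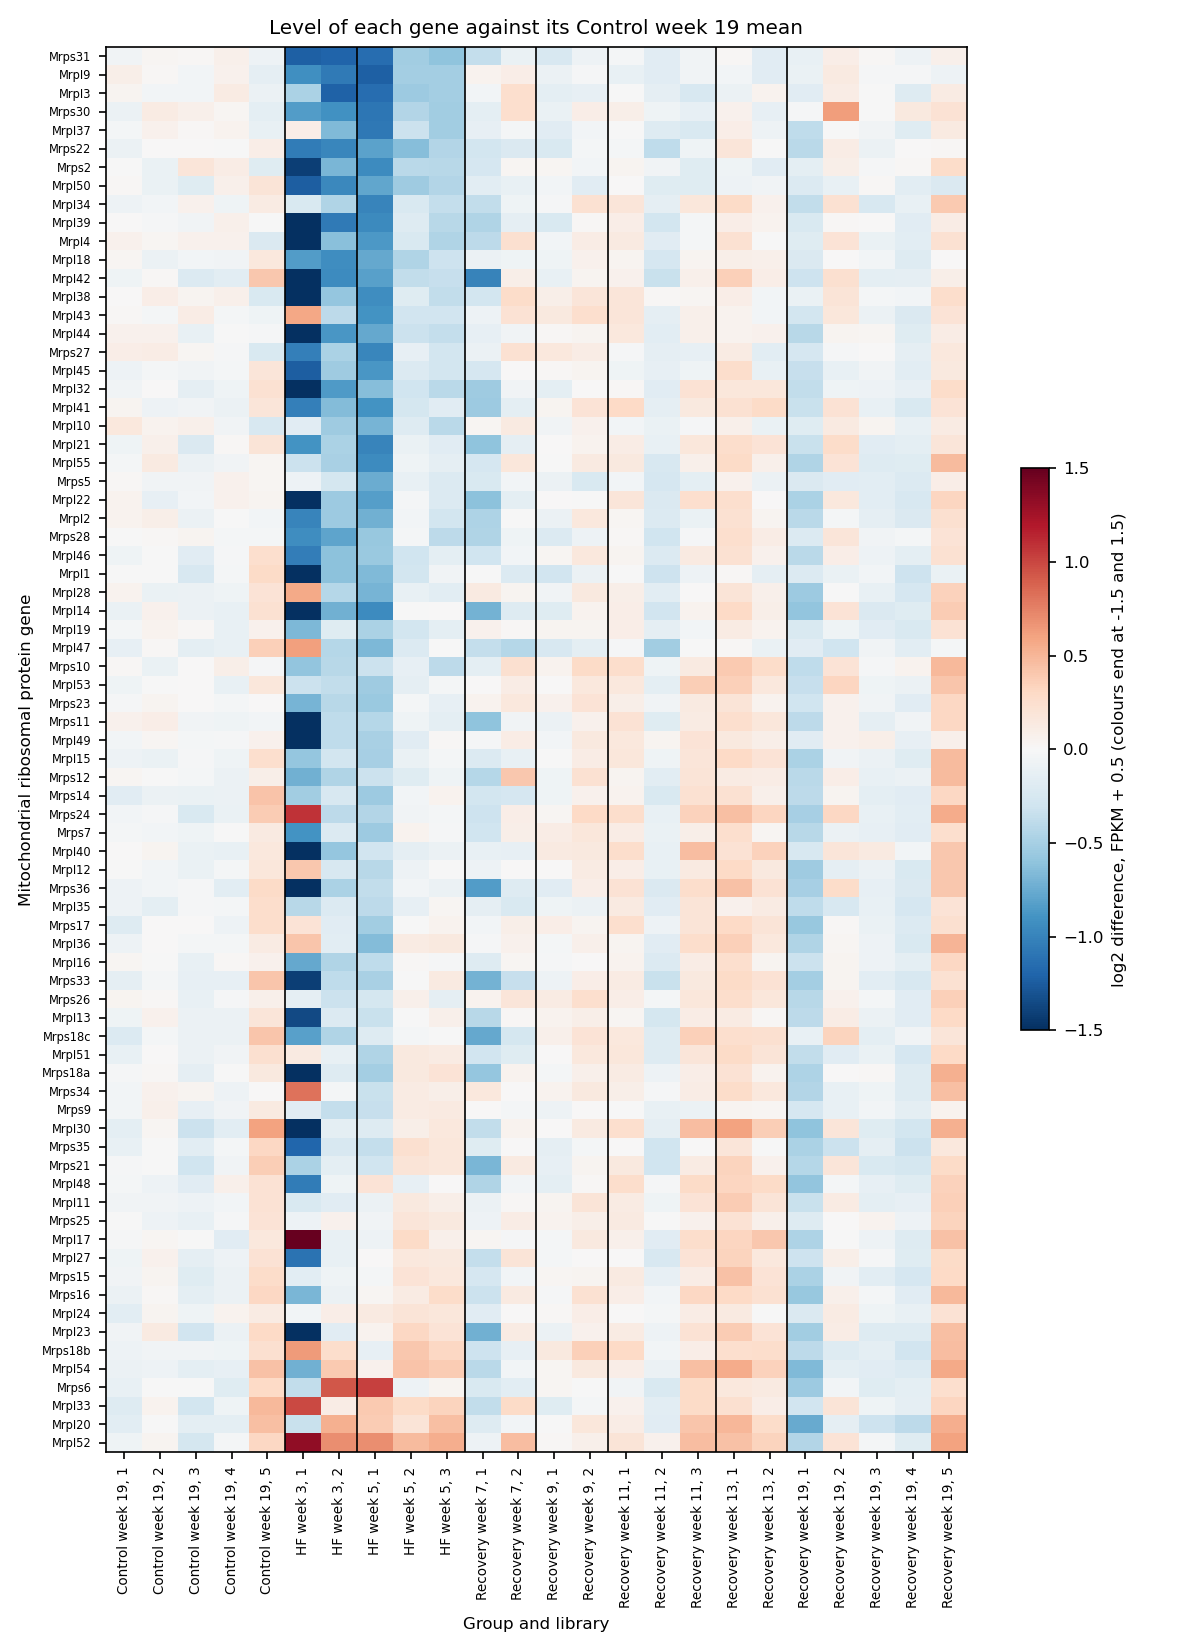
Heat map of the 76 genes (rows, ordered by the HF week 5 difference) in the 24 libraries (columns, grouped by condition). Colour is the log2 difference of FPKM + 0.5 from the gene's Control week 19 mean, blue for lower and red for higher, cut at -1.5 and 1.5; the columns of HF week 3 and of HF week 5 library 1 are mostly blue, HF week 5 libraries 2 and 3 are blue in the upper rows only, and Recovery week 19 library 1 is bluer and library 5 redder than the controls, with medians of -0.38 and 0.28.

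At week 5 of HF some members were lower than in Control week 19, and the median over all of them was carried by library 1: it was -0.52 there and -0.07 and -0.04 in libraries 2 and 3, against -0.07 to 0.17 in the controls. The median of the members' log2 differences was -0.21, against 0.04 over all genes tested, and the estimate was below 0 in 58 of the 76. By limma on log2(FPKM + 0.5), with Benjamini-Hochberg adjustment over all 12759 genes, 14 members fell, while 12.4% of all genes were called lower. One member rose, Mrpl52, where 11.6% of all genes were called higher. In 24 members every HF week 5 library was below every control, and in 2 every one was above, against 14.7% and 14.8% of all genes. Without HF week 5 library 1 limma called 7 members lower and 0 higher, against 6.42% and 4.21% of all genes under that setting, and the median was -0.08, against 0.03.

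The largest fall was that of Mrps31, a small subunit protein found only in mitochondria. It was at 21.3, 22.6, 22.3, 23.2 and 21.0 FPKM in Control week 19 and at 9.75, 15.2 and 14.4 FPKM in HF week 5. All 3 HF libraries were below all 5 controls, and the mean was 59.5% of the control mean (log2 difference -0.75, SE 0.12, limma adjusted p = 0.000264). Mrpl9, the counterpart of bacterial L9, was at 55.3, 52.8, 50.5, 54.4 and 47.5 FPKM in the controls and at 21.9, 36.2 and 36.5 FPKM in HF week 5. Again no HF library reached the controls, and the difference was -0.75 (SE 0.13, limma adjusted p = 0.000457). Mrpl9 shares 157 bases of exon with Oaz3 on the other strand in GRCm38, and whether the counting used strand is not given in the sources used here. Other members named below overlap genes of the other strand too. Among them are Mrps30, by 601 bases with B430218F22Rik, and Mrpl10, by 240 bases with Gm11574.

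Mrpl3 lies near the centre where peptide bonds are formed, and its gene is a known cardiomyopathy gene. It was at 62.0, 58.3, 58.6, 65.2 and 56.6 FPKM in Control week 19 and at 26.9, 41.2 and 42.2 FPKM in HF week 5. The groups did not overlap (log2 difference -0.73, SE 0.15, limma adjusted p = 0.00256). Mrps22, a mitochondria-specific protein of the small subunit whose gene is also known from cardiomyopathy, was at 15.0, 16.0, 16.0, 15.9 and 17.1 FPKM in the controls and at 8.99, 10.1 and 11.7 FPKM in HF week 5. It too was lower in every HF library, by 0.62 on the log2 scale (SE 0.12, limma adjusted p = 0.00122). Mrpl44, the other cardiomyopathy gene on the list, did not pass: its controls were at 50.03, 50.1, 44.2, 47.7 and 47.4 FPKM and its HF week 5 libraries at 27.9, 38.2 and 37.3 FPKM. These values do not overlap either, but the gene's spread over all groups was larger (log2 difference -0.48, SE 0.23, limma adjusted p = 0.143). Over the 20 settings tried its adjusted p ran from 0.00493 without the HF week 3 libraries to 0.457 without HF week 5 library 1, and it was called in 4.

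The other members with the largest falls and no overlap were 3 large subunit proteins and 1 of the small subunit. Mrps30, a large subunit protein despite its symbol, was at 38.7, 45.0, 43.3, 41.9 and 37.1 FPKM in the controls and at 19.1, 30.2 and 28.4 FPKM in HF week 5 (log2 difference -0.68). Mrpl50, mitochondria-specific, was at 24.7, 22.7, 21.5, 25.7 and 28.1 FPKM in the controls and at 14.0, 16.7 and 17.9 FPKM in HF week 5 (log2 difference -0.59). In both of them, as in Mrps31, Mrpl9, Mrpl3 and Mrps22, the lowest HF value was that of library 1 and the other libraries were also below every control. Mrpl37, mitochondria-specific, was at 77.6, 82.9, 80.4, 82.4 and 73.3 FPKM in the controls and at 37.5, 63.3 and 55.1 FPKM in HF week 5 (log2 difference -0.64). Mrps2, the counterpart of bacterial S2, was at 12.1, 11.4, 13.9, 13.2 and 10.7 FPKM in the controls and at 6.11, 9.11 and 9.03 FPKM in HF week 5 (log2 difference -0.59). Their limma adjusted p-values were 0.00358 for Mrps30, 0.000785 for Mrpl50, 0.0083 for Mrpl37 and 0.00946 for Mrps2. The 4 further members that fell and fall outside the naming rule, Mrpl34, Mrpl18, Mrps27 and Mrps5, were named after their values were seen; their log2 differences were -0.53, -0.51, -0.46 and -0.35.

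Mrpl52, a mitochondria-specific protein of the large subunit, went the other way. It was at 263, 284, 231, 270 and 343 FPKM in Control week 19 and at 449, 384 and 404 FPKM in HF week 5, so that every HF library was above every control. The log2 difference was 0.58 (SE 0.20, limma adjusted p = 0.0409), and it was called in 10 of 20 other settings, with adjusted p-values of 0.00712 to 0.162, the highest without HF week 5 library 1. Its nearest protein-coding neighbour in GRCm38 is Mmp14, a matrix metalloproteinase gene that lies 1856 bases away on the same strand. Mmp14 showed a difference of 0.23 (limma adjusted p = 0.434) at week 5 and of 1.27 (limma adjusted p = 0.000202) at HF week 3.

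**Figure D2:**
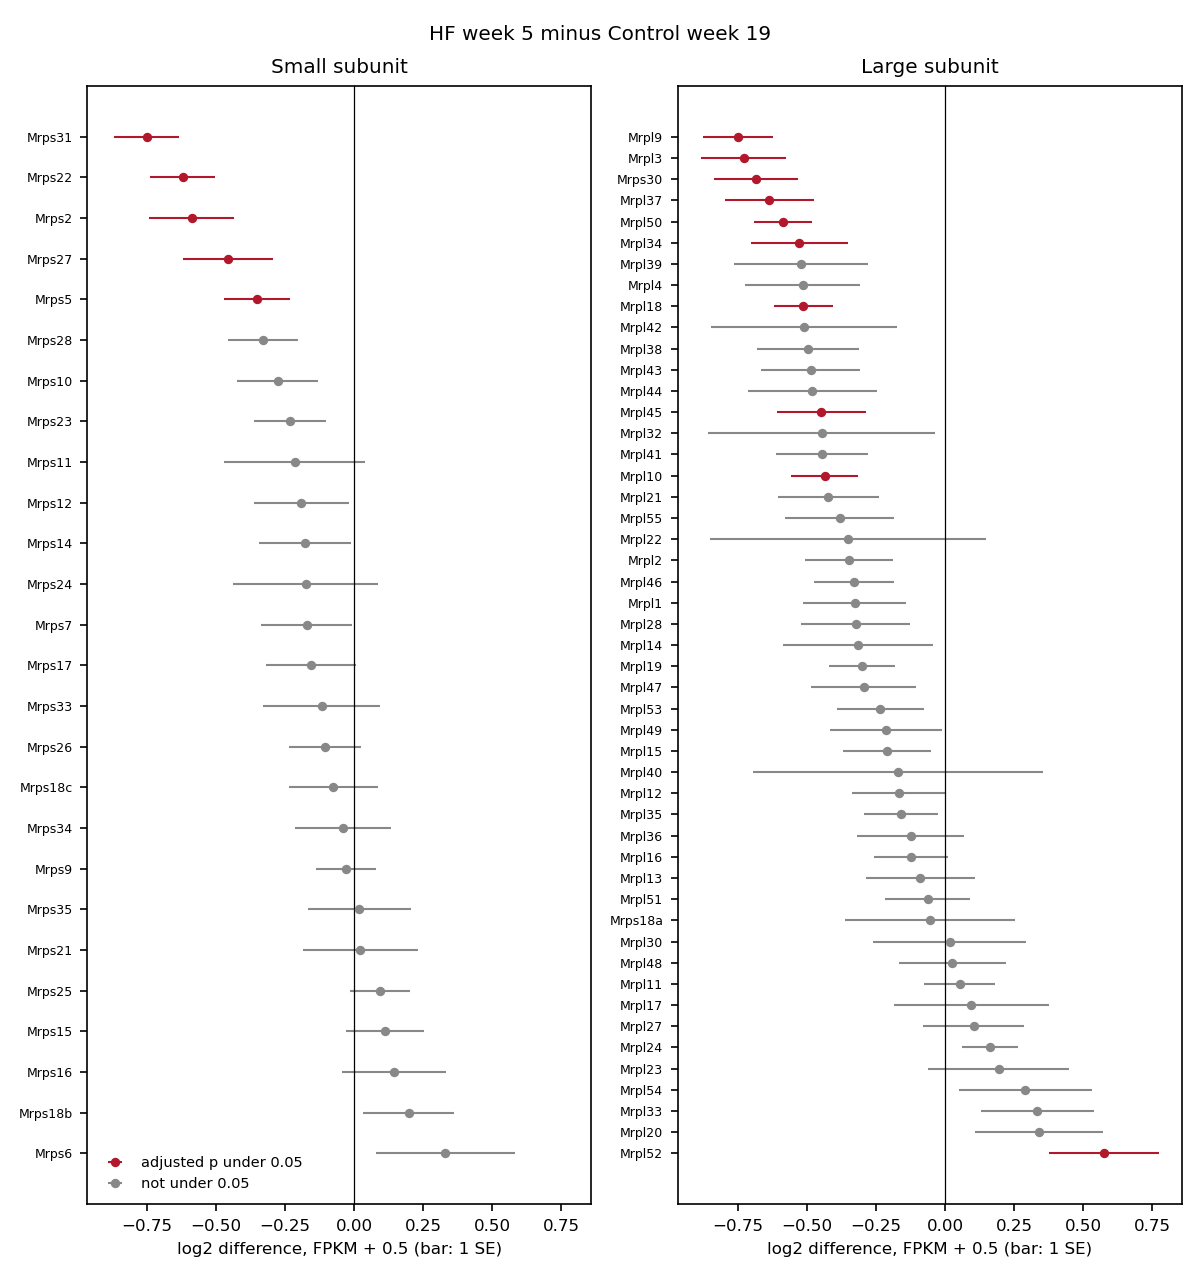
Log2 difference of HF week 5 from Control week 19 for each gene of the small subunit (left) and the large subunit (right); points are limma estimates, bars 1 SE, red for adjusted p under 0.05. Most points lie left of 0, from -0.75 in Mrps31 and Mrpl9 to 0.58 in Mrpl52, the only gene called higher.

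The call count depended on HF week 5 library 1. The 7 members called lower without library 1 were all among the 14. Mrps31, Mrpl9, Mrpl3, Mrps22, Mrps30 and Mrpl50 remained called in all 20 settings tried. Mrpl37, Mrps2 and Mrpl10 lost the call without library 1 (limma adjusted p = 0.0958, 0.102 and 0.131). That library also had the highest atrial sum of all libraries, 81731 FPKM, and the part of the atrial genes in the members' fall was not tested.

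The promoters of the 8 members with the largest falls and of Mrpl52 are shown because these genes moved furthest. RefSeq promoter sequences (GRCm38.p6, 250 bases before to 50 after the start) matched 67 of the 76 members with 73 promoters. Given are the 60 bases before the start, 5′ to 3′ on the gene's strand, with exact matches to 1 of 6 words on either strand in capitals.
Mrps31 (chr8:22411280-22411339, +): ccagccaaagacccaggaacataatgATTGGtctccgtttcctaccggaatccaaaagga
Mrpl9 (chr3:94443276-94443335, +): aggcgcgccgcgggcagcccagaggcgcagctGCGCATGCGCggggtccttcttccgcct
Mrpl3 (chr9:105053208-105053267, +): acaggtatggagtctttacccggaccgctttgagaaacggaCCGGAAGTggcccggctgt
Mrps30 (chr13:118387253-118387312, -): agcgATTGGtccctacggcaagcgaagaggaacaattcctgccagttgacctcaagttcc
Mrpl37 (chr4:107066867-107066926, -): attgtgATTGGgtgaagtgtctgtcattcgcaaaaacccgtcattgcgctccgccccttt
Mrps22 (chr9:98601680-98601739, -): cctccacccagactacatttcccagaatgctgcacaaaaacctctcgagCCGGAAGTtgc
Mrps2 (chr2:28468006-28468065, +): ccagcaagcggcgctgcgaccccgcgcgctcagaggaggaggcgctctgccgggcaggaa
Mrpl50 (chr4:49521084-49521143, -): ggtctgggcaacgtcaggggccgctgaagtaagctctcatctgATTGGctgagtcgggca
Mrpl52 (chr14:54426849-54426908, +): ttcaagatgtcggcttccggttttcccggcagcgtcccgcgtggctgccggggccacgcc

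The words were GCGCATGC for NRF1, CCGGAAGT for ETS factors, AAGATGGC for YY1, TCAAGGTCA for the oestrogen-related receptors (ERR), the CCAAT box and GGGGCGGG for the GC box; none of them contains another. NRF1, the ETS factor GABP, YY1 and the ERRs are known regulators of nuclear genes for mitochondria. Over the whole promoter sequence the NRF1 word was in 10.96% of the members' promoters and in 2.73% of all 32544 promoters, the ETS word in 16.4% and 3.92%, and the YY1 word in 16.4% and 2.77%. The GC box was in 31.5% and 16.6%, the CCAAT box in 41.1% and 37.4%, and the ERR word in 0% and 0.412%. The members' promoters were also richer in CpG, with a median of 7 per 100 bases against 2.33. The NRF1, ETS and GC box words hold a CG, and the YY1, ERR and CCAAT words do not. The part of CpG content in the matches was not tested. Among the promoters printed, the NRF1 word stood in that of Mrpl9, on both strands with an overlap, and the ETS word in those of Mrpl3 and Mrps22. Mrpl52 held the ETS word from its start onward, outside the stretch shown. A match is a description of the letters only.

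By subunit, 5 of the 26 small subunit genes fell at HF week 5 and none rose, with a median log2 difference of -0.16. Of the 49 large subunit genes, 9 fell and 1 rose, with a median of -0.32. Over all genes 12.4% were called lower. The median was -0.44 in the 19 mitochondria-specific genes of the large subunit, -0.30 in its 30 genes with a bacterial counterpart, -0.17 in the 16 small subunit genes with a counterpart and -0.11 in the 10 mitochondria-specific ones. Without HF week 5 library 1, 2 of the 26 small subunit genes and 5 of the 49 large subunit genes were called lower, which is 7.69% and 10.2% against 6.42% of all genes, with medians of -0.02 and -0.11, and the 4 class medians were -0.22, -0.08, -0.02 and 0.02 in the order given. The differences between these classes were not tested. Transcript length went with the calls, a difference that was not tested: above the members' median length of 953 bases, 11 of 38 fell with a median of -0.33, and at or below it 3 of 38 fell with a median of -0.12. Over all genes split at the same length 1142 of 8414 and 386 of 3487 were called lower, and the medians were 0.03 and 0.06. Without library 1, 6 and 1 of the members were called lower, which is 15.8% and 2.63% against 7.12% and 5.45% of all genes of the same length classes, and the members' medians were -0.16 and -0.01.

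The stalk of the large subunit recruits translation factors, and 1 of its 3 proteins read here was called; differences between the genes were not tested. Mrpl10, which anchors the stalk, fell from 46.1, 42.6, 43.4, 39.9 and 35.0 FPKM in the controls to 25.2, 35.9 and 31.0 FPKM in HF week 5, with 1 control below the highest HF value (log2 difference -0.44, SE 0.12, limma adjusted p = 0.0142), a call lost without library 1 (adjusted p = 0.131). Mrpl12, the stalk protein itself, was at 348, 341, 328, 343 and 393 FPKM in the controls and at 261, 332 and 350 FPKM in HF week 5 (log2 difference -0.17, SE 0.17, limma adjusted p = 0.514). Mrpl11, at its base, was at 25.4, 25.5, 25.1, 25.8 and 30.9 FPKM and at 24.96, 29.4 and 28.3 FPKM (log2 difference 0.05, SE 0.13, limma adjusted p = 0.794). The groups overlapped in all 3 genes. Mrpl45, which sits at the exit of the peptide tunnel and holds the ribosome to the inner membrane, was at 31.4, 32.4, 31.9, 32.6 and 37.6 FPKM in the controls and at 17.9, 28.8 and 27.3 FPKM in HF week 5. Its fall was just past the threshold (log2 difference -0.45, SE 0.16, limma adjusted p = 0.048), and without library 1 the adjusted p was 0.37.

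Other members fixed by role did not pass. Mrps12, a protein of the decoding centre, had 99.4 ± 8.77 FPKM (SD, n = 3) in HF week 5 and 113 ± 5.44 (SD, n = 5) in Control week 19. Mrps16 had 223 ± 19.6 FPKM (SD, n = 3) and 203 ± 27.8 (SD, n = 5). The small subunit protein S18 of bacteria has 3 relatives in mitochondria, and none of them changed by the test: the log2 difference was -0.05 (SE 0.31) in Mrps18a, 0.20 (SE 0.16) in Mrps18b and -0.08 (SE 0.16) in Mrps18c. Of the most abundant members, Mrps21 was at 1074 ± 192 FPKM (SD, n = 3) and 1057 ± 182 (SD, n = 5), and Mrpl42 at 604 ± 103 and 861 ± 157, with no overlap but an adjusted p of 0.289. Mrpl33 had a difference of 0.33 (SE 0.20) and Mrpl30 one of 0.02 (SE 0.28). Of the least abundant, Mrpl19 had a difference of -0.30 (SE 0.12, limma adjusted p = 0.0765), Mrpl1 one of -0.33 (SE 0.19) and Mrpl35 one of -0.16 (SE 0.13).

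At week 3 of HF more members were called lower. Of the 76, 44 fell, against 27.6% of all genes, and 2 rose, Mrpl52 and Mrpl17, against 23.1%. The median log2 difference was -0.57, against -0.05 over all genes tested. The same 5 controls served for weeks 3 and 5, so the 2 comparisons are not independent. Markers of heart muscle and of other cells moved with HF week 3 too. Of the 10 cardiomyocyte markers 5 fell, Ldb3 (-1.92), Pln (-1.90), Ryr2 (-1.27), Tnnt2 (-0.76) and Actn2 (-0.65), and 4 without library 1; their medians in the libraries were -0.97 and -0.51, where the members had -0.75 and -0.39. The cardiomyocyte sum was 17998 and 18425 FPKM, against 23951 to 29024 in the controls. Of the 8 fibroblast markers 6 rose, with and without library 1, and their sum was 740 and 747 FPKM, against 253 to 360. The part of these cells in the members' fall was not tested.

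The largest estimates at week 3 came from library 1. Mrpl40, a mitochondria-specific protein of the large subunit, was at 0.456 FPKM in library 1 and at 19.1 in library 2, against 29.0, 29.7, 27.0, 26.7 and 32.4 FPKM in the controls. Mrpl22, whose bacterial counterpart lines the exit tunnel, was at 1.81 and 36.1 FPKM against 48.6 to 55.7 in the controls. Mrpl32, a large subunit protein, was at 1.96 and 24.2 FPKM against 40.1 to 51.7. In these genes the libraries of HF week 3 differed by more than library 2 differed from the controls. The log2 differences were -2.76 in Mrpl40, -2.54 in Mrpl22, -2.51 in Mrpl32, -2.10 in Mrpl42 and -1.91 in Mrpl39 (limma adjusted p = 0.000963, 0.00124, 0.000279, 0.00023 and 2.34e-05). Without library 1 they were smaller, from -1.06 in Mrpl39 to -0.55 in Mrpl22, and Mrpl22 was no longer called (adjusted p = 0.137). Over all members 20 were then called lower, against 15.6% of all genes under that setting, with a median of -0.39, against 0.02. Of the members, 1 was then called higher, Mrps6, named after its values were seen (log2 difference 0.93, limma adjusted p = 0.0276), against 14.7% of all genes; its gene shares an exon with Slc5a3 on the same strand. Mrpl52 was no longer called (0.70, adjusted p = 0.064) and Mrpl17 was at -0.11 (adjusted p = 0.737).

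The members that fell most at week 5 were low in both libraries of week 3. Mrps31 was at 9.14 and 9.27 FPKM (log2 difference -1.22), Mrps22 at 7.47 and 7.86 (-1.01), Mrpl9 at 27.1 and 24.6 (-0.99) and Mrpl50 at 10.1 and 12.3 (-1.10). Mrps30 was at 22.8 and 21.7 FPKM (-0.87), Mrpl3 at 43.1 and 25.7 (-0.84) and Mrps2 at 4.28 and 7.40 (-1.05). All 7 were below every control in both libraries, and their limma adjusted p-values were 1.08e-06 to 0.000715. Mrpl37 was an exception, at 84.9 and 50.02 FPKM on either side of the controls (log2 difference -0.28, limma adjusted p = 0.215). Mrpl52 was at 694 and 449 FPKM, above every control (log2 difference 1.02, limma adjusted p = 0.00122). The rise of Mrpl17 rested on library 1, at 156 FPKM against 37.4 in library 2 and 36.0 to 45.4 in the controls.

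**Figure D3:**
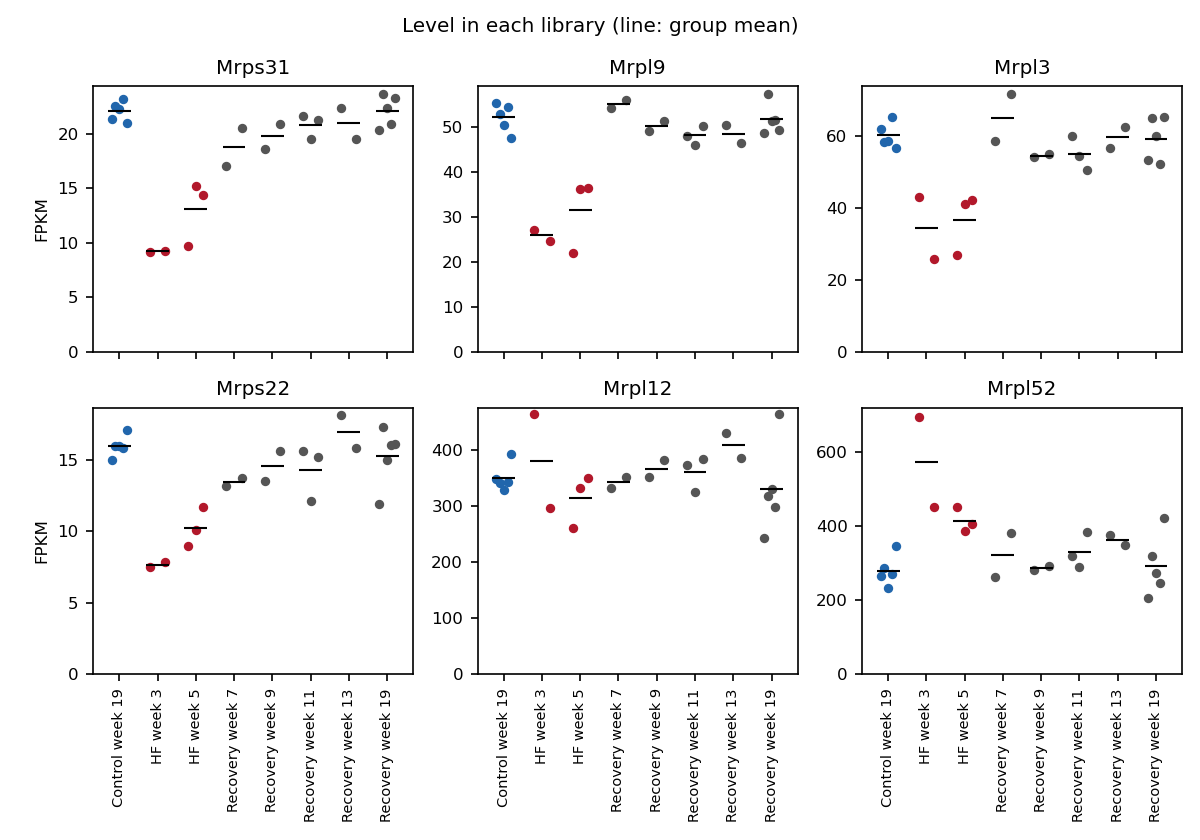
FPKM of Mrps31, Mrpl9, Mrpl3, Mrps22, Mrpl12 and Mrpl52 in each library, by group on the horizontal axis (blue Control week 19, red HF, grey recovery; lines are group means). Mrps31, Mrpl9, Mrpl3 and Mrps22 lie below the controls in all 5 HF libraries, Mrpl52 lies above them and Mrpl12 overlaps them.

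At the first sampling after the agents stopped, the share of members called higher than at HF week 5 was near that of all genes. At week 7, 7 members were called higher than at HF week 5, against 8.05% of all genes, and none lower, against 6.75%, with 1 at an unadjusted p under 0.05. The median log2 difference was 0.08, against -0.05 over all genes. Mrpl3 was at 58.5 and 71.6 FPKM (log2 difference 0.84, limma adjusted p = 0.00815), Mrpl9 at 54.2 and 55.8 (0.83, 0.00255) and Mrps30 at 37.1 and 49.2 (0.74, 0.0151). Mrps31 was at 17.0 and 20.5 FPKM (0.52, 0.023) and Mrpl10 at 42.1 and 45.3 (0.52, 0.0287). All 5 genes were above every HF week 5 library in both libraries of week 7. With only the groups compared in the fit no member was called, and the count was 2 without HF week 5 library 1, against 4.08% of all genes called higher under that setting, 3 without Recovery week 7 library 1 and 1 without Recovery week 7 library 2. The median turned to -0.08 without HF week 5 library 1 and to -0.06 without Recovery week 7 library 2.

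At week 19, 12 members were called higher than at HF week 5 and none lower, with 2 lower at an unadjusted p under 0.05; 12.3% and 12% of all genes were called. In 13 members all 5 Recovery week 19 libraries were above all 3 of HF week 5, against 14.1% of all genes. The count of members called was near that background in size (12 of 76), and the median difference was 0.18, against -0.04 over all genes. HF week 5 stands in this comparison and in the one with the controls, so the members picked out by both are not independent.

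Mrps30 showed the largest rise, to 40.8, 63.8, 41.0, 45.7 and 48.1 FPKM (log2 difference 0.88, SE 0.15, limma adjusted p = 0.00058). Mrps31 was at 20.4, 23.7, 22.4, 20.9 and 23.3 FPKM at week 19 (0.75, SE 0.12, limma adjusted p = 0.000238). Mrpl9 was at 48.7, 57.3, 51.3, 51.5 and 49.3 FPKM (0.74, SE 0.13, limma adjusted p = 0.000517). All 5 libraries of each were above every HF week 5 library. Mrps31 and Mrpl9 overlapped the controls, and in Mrps30 libraries 2, 4 and 5 lay above all of them, at 63.8, 45.7 and 48.1 FPKM. Mrpl3 was at 53.3, 64.9, 59.8, 52.3 and 65.3 FPKM (0.70, SE 0.15, limma adjusted p = 0.00337), and Mrps22 at 11.9, 17.3, 15.1, 16.1 and 16.2 FPKM (0.55, SE 0.12, limma adjusted p = 0.00286). For Mrps2, Mrpl38 and Mrpl50 the differences were 0.63, 0.55 and 0.45, with limma adjusted p-values of 0.00613, 0.0337 and 0.00482. Mrpl10 rose by 0.44 (limma adjusted p = 0.0135). Mrpl52 was at 204, 318, 270, 244 and 421 FPKM, which overlapped HF week 5, and its difference of -0.54 did not pass (limma adjusted p = 0.0527). Without HF week 5 library 1, 6 members were called higher, all among the 12, against 6.86% of all genes under that setting, and the median was 0.03. Mrps31, Mrpl9, Mrpl3, Mrps22, Mrps30 and Mrpl50 were called in all 20 settings tried.

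Against Control week 19 no member was called in any recovery group. The share of all genes called was 0.047% at week 7, 0.0549% at week 9, 0.149% at week 11, 0.0784% at week 13 and 0.0235% at week 19. At an unadjusted p under 0.05 limma called 2 members at week 7, Mrps33 and Mrps18c, both lower and named here after their values were seen, and 0 at each later time. The shares of all genes are at an adjusted p and are no background for these 2, since an unadjusted p calls some genes without any difference. The members' median log2 differences were -0.11, 0.03, 0.03, 0.15 and -0.05 in the same order. At week 19 the estimates ran from -0.22 (Mrps35, SE 0.16) to 0.20 (Mrps30, SE 0.13), both ends named after the values were seen, so differences of that size cannot be told from 0 with these libraries. No member had Recovery week 19 libraries that all lay above or all lay below the controls.

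The members' level also differed between libraries of 1 group. Among the recovered hearts of week 19 the members' median difference from the controls was -0.38, 0.07, -0.08, -0.17 and 0.28 in the 5 libraries, and among the controls themselves it was -0.04, 0.01, -0.07, -0.04 and 0.17. All genes with short transcripts (up to 953 bases) moved the same way in these libraries, with medians of -0.11, 0.04, -0.03, -0.06 and 0.11 at week 19 and of -0.01, 0.01, -0.04, -0.01 and 0.06 in the controls. At HF week 5 the short transcripts had medians of 0.04, 0.06 and 0.05, where the members had -0.52, -0.07 and -0.04. At HF week 3 they had -0.14 and 0.02, where the members had -0.75 and -0.39, so that both were lower in library 1. After a trend of each library on transcript length and GC content was removed, a setting chosen after seeing the data, 18 members were called lower at HF week 5, of which 13 were among the 14. The share of all genes called lower under that setting was not counted, so this count has no background beside it.

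**Figure D4:**
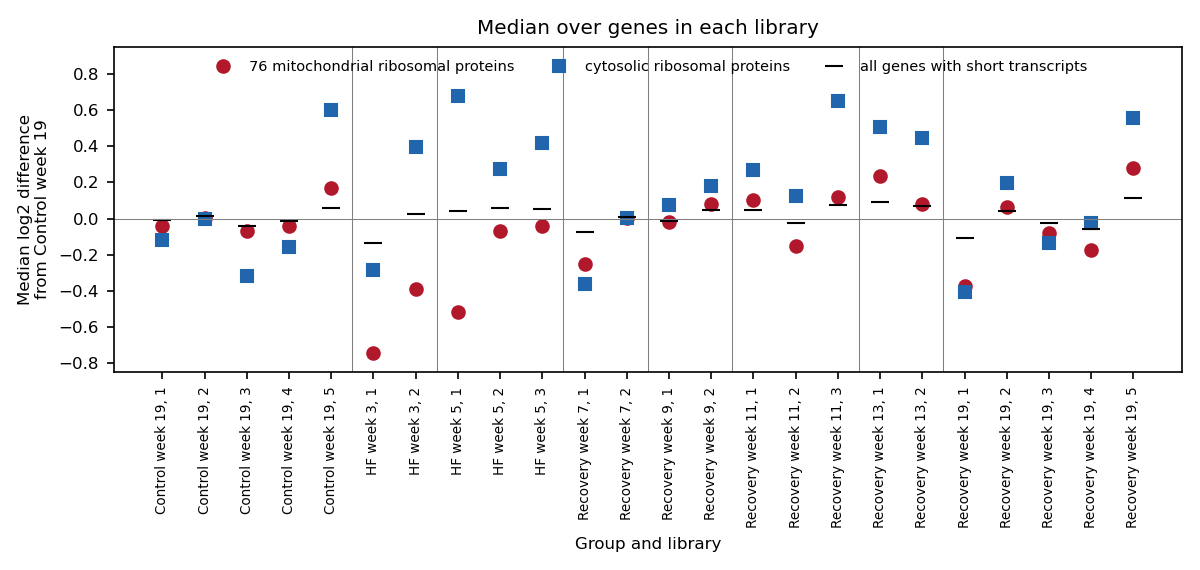
Median log2 difference from the Control week 19 mean in each library for the 76 members (red circles), the cytosolic ribosomal proteins (blue squares) and all genes with transcripts up to 953 bases (black dashes). The members lie at -0.75 and -0.39 in the HF week 3 libraries and at -0.52 in HF week 5 library 1, while the cytosolic ribosomal proteins lie above 0 in all 3 HF week 5 libraries and spread from -0.32 to 0.60 in the controls.

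Other genes of mitochondrial translation were read from lists of known factors, to be set against the 12.4% of all genes called lower at HF week 5 and the 6.42% called lower without library 1. Of the 11 translation factors, 4 fell at HF week 5 and none rose, with a median log2 difference of -0.40; without library 1, 1 was called and the median was -0.16. Gfm1, the elongation factor G1 that moves the ribosome along the messenger RNA, went from 43.8 ± 7.22 FPKM (SD, n = 5) in Control week 19 to 19.4 ± 7.47 (SD, n = 3), a log2 difference of -1.22 that exceeded that of every member. The initiation factor Mtif2 fell by 0.59 on the log2 scale, the recycling factor Mrrf by 0.46 and Gfm2, which acts with it, by 0.40. Of the 18 genes for mitochondrial aminoacyl-tRNA synthesis, which charge the tRNAs, 6 fell (median -0.26) and without library 1, 3 (-0.15). Among the 6 were Yars2 for tyrosine (-0.89), Qrsl1, a subunit of the glutamine amidotransferase (-0.89), Nars2 for asparagine (-0.64) and Mars2 for methionine (-0.57). Of the 19 ribosome assembly factors 3 fell (median -0.24), a share near that of all genes, and without library 1, 1 (-0.15). The 3 were the ribosomal RNA methyltransferases Mrm1 (-0.52), Ftsj2 (-0.52) and Nsun4 (-0.45). Of a list of 8 genes with symbols outside the rule, 7 for ribosomal proteins and Oxa1l for the inner membrane insertase that binds the ribosome, limma called 0, and the median was -0.05. The only one with an unadjusted p under 0.05 was Oxa1l, with a difference of -0.52. Dap3 and Ptcd3 of the small subunit, named after their values were seen, both had a difference of -0.05.

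Genes for mitochondrial RNA and for import were read in the same way. Of the 14 genes for mitochondrial DNA transcription and RNA handling, 4 fell (median -0.31), and 1 without library 1 (-0.16). The 4 were Lrpprc, which stabilises mitochondrial messenger RNAs (-0.79), Elac2, which trims tRNAs (-0.59), the RNA helicase Supv3l1 (-0.48) and the transcription factor Tfam (-0.46). Of the 19 import genes, 7 fell (median -0.41), and 4 without library 1 (-0.20). The list's median was -0.74 in library 1 against -0.14 and -0.12 in the others. Among the 7 were Timm23, the channel of the inner membrane (-0.79), the chaperonin Hspd1 (-0.76), Timm17a (-0.62) and Tomm5 (-0.56). No gene of either list rose. The cytosolic ribosomal proteins, which make up the ribosomes that synthesise all of these proteins, had 11 of 78 genes called higher and 1 lower, with a median of 0.46. Their median over libraries was also 0.48 at Recovery week 13 and 0.35 at week 11, and in single libraries it ran from -0.32 to 0.60 in the controls and from 0.27 to 0.68 at HF week 5, so that the groups overlapped. The largest rises were in Rps12 (0.98), Rpl3 (0.84), Rpl26 (0.81) and Rps20 (0.81), and the gene that fell was Rpl3l, the striated muscle form of Rpl3 (-0.71). The share of genes called higher among them, 11 of 78, was near the 11.6% of all genes, and without library 1 limma called 0 of them, with a median of 0.36.

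Markers of other cells moved with HF beside the members. Of the marker lists, 4 of 4 atrial, 4 of 5 epicardial, 6 of 8 fibroblast, 4 of 7 endothelial and 3 of 5 smooth muscle genes rose at HF week 5, and none of the 7 leukocyte genes was called. Without library 1 the counts were 4 atrial, 4 epicardial, 1 fibroblast, 4 endothelial and 1 smooth muscle gene. Over all genes 11.6% were called higher and 12.4% lower at HF week 5, and 4.21% and 6.42% without library 1. The fibroblast markers summed to 253 to 360 FPKM in Control week 19 and to 357 to 707 in HF week 5, and the endothelial markers to 257 to 327 and 369 to 475. Of the 10 cardiomyocyte markers 2 fell, Pln (phospholamban, -0.87) and Ldb3 (a Z-disc protein, -0.84), neither of which was called without library 1, and the sum of all 10 was 23951 to 29024 FPKM in the controls and 20125 to 28669 in HF week 5. The part of these cells in the members' fall was not tested. In whole libraries the members made up 1.22% to 1.27% of all FPKM in Control week 19 and 1.15% to 1.19% in Recovery week 19. Their share was 0.916% to 1.09% in HF week 5, and 0.941% and 0.707% in the libraries of HF week 3, the second of them the lowest of all. At weeks 7 to 13 the share was 0.851% to 1.03%, where the 10 highest genes took 27.9% to 37.4% of all FPKM, against 14.6% to 18.8% at weeks 5 and 19 and 19.8% and 37.5% in the libraries of HF week 3.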

How the data were processed

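The deposited values are FPKM per gene and library, which the authors computed with Cuffdiff after aligning paired-end reads with TopHat to MGSCv37 (mm9); the annotation and the scaling between libraries are not given in the sources used here. Depth is known only as relative depth from low values, and no count test was run. Columns were matched to groups by name; 5 columns of single samples, named for the week 5 controls, of which 4 samples are labelled, were not used, so a planned comparison with them was not made, and Recovery week 9 has 2 columns for 3 labelled samples. No source says that libraries of a group are separate animals in every case, so p-values measure the spread between libraries.

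The fit took all genes whose mean over the libraries reached 0.5 FPKM, as log2(FPKM + 0.5), which understates changes of low genes, with limma 3.58.1 in R 4.3.3 (group means, trend, two-sided, 16 residual degrees of freedom); calls are at a Benjamini-Hochberg adjusted p under 0.05 over all 12759 genes. On data simulated for HF week 5 against Control week 19 in 12759 genes, calls were made for 69% of genes given a log2 change of 1 and for 96% of those given 2. Genes were drawn independently there, with no shift shared within a library, and changes below 1 were not simulated. The rates therefore do not cover the members' changes at HF week 5, which were all smaller than 1. Named were members fixed by role, the 8 largest calls with no overlap at HF week 5 and Recovery week 19, up to 5 calls in the opposite direction, the 5 largest calls elsewhere, and the 4 highest and lowest members. From other lists at most 4 called genes were named. The members and lists were chosen with earlier results of these data known. Alternatives covered pseudocount, filter, normalization, fit and left-out libraries. Transcript lengths, overlaps and neighbours are from GENCODE vM21 and promoters from RefSeq, both GRCm38; Python 3.11.15 was used for tables and figures.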

Additional observations from a re-analysis of the deposited data

Results flagged for a closer look

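In groups of 5 libraries, 64 sets of values were examined for a library far from the others (31 named members and the members' median, in 2 groups), and 6 stood apart, where chance gives about 1 in 20. All 6 were library 5 of its group and the highest value. In Control week 19 library 5, Mrpl11 was at 30.88 FPKM against 25.1 to 25.8 in the other controls, Mrpl45 at 37.63 against 31.4 to 32.6, Mrps18b at 64.0 against 51.3 to 52.3, Mrps18c at 179.4 against 117 to 132, and Mrpl35 at 12.11 against 8.99 to 9.84. In Recovery week 19 library 5, Mrps18b was at 74.71 FPKM against 41.0 to 48.9 in the other libraries. At Recovery week 19 against HF week 5 Mrps18b was not called (limma adjusted p = 0.186). It was called lower in 2 of 20 other settings, with the lowest adjusted p, 0.0191, without this library. In library 5 of Control week 19 and of Recovery week 19 all genes with transcripts up to 953 bases had medians of 0.06 and 0.11 against the controls. These were the highest of their groups, and the cytosolic ribosomal proteins had 0.60 and 0.56. The part of this in the 6 values was not tested.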

How the results depend on the processing

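Of the values of single members under other settings, 1013 kept direction and side of the threshold, 55 lost the call, 13 gained it and 23 changed sign, all 23 in members called in neither setting. At HF week 5 Mrpl11 was at -0.0063, Mrps21 at -0.0367 and Mrpl30 at -0.0418 with each library centred on its median, and Mrps18c was at 0.0044, Mrps21 at -0.0679 and Mrpl30 at -0.0319 with quantile normalization. With 1 library left out the estimates ran from -0.06 to 0.1805 in Mrps21 and from -0.0639 to 0.1681 in Mrpl30. In Mrps18c they ran from -0.1275 to 0.0273 and in Mrps18a from -0.1823 to 0.1747. Mrps18a was also at 0.1747 without HF week 3 library 1 and HF week 5 library 1, called doubtful here. HF week 3 library 2 stood apart as well, by its atrial genes. At Recovery week 19 against HF week 5 the estimates with 1 library left out ran from -0.0798 to 0.1546 in Mrpl12. In Mrps18a they ran from -0.1945 to 0.1624. Without both doubtful libraries they were -0.0773 in Mrpl12 and -0.1945 in Mrps18a. The members' median changed sign at Recovery week 7 against HF week 5, and in some settings at Recovery weeks 7, 9, 11 and 19 against Control week 19, where it stayed within 0.0304 of 0. Members called lower at HF week 5 numbered 14, 24 at an unadjusted p under 0.05, and 23 both without the HF week 3 libraries and without HF week 3 library 1 in every comparison; leaving out 1 library of the groups compared gave 7 to 21. At HF week 3 the count of 44 became 28 without HF week 3 library 1 and HF week 5 library 1 together, and 20 to 46 with 1 library left out. Members higher at Recovery week 7 than at HF week 5 numbered 7 in the report, 15 unadjusted, 11 with quantile normalization, 11 without the HF week 3 libraries or their library 1, 0 with only the groups compared in the fit, 3 without both doubtful libraries, and 1 to 9 with 1 library left out. At Recovery week 19 the count of 12 became 20 unadjusted, 19 without the HF week 3 libraries or their library 1, 7 with only the groups compared, and 6 to 14 with 1 library left out. Recovery week 7 against Control week 19 had 2 calls unadjusted. The median at Recovery week 13 was 0.15, and 0.0233 with quantile normalization. Shares of all genes are given above only for the settings without HF week 5 library 1, or without HF week 3 library 1 in its own comparison. The other counts have no background beside them and are no result about the members. An unadjusted p also calls more of all genes than an adjusted one. The cause of the shifts between settings was not tested. The settings that leave out doubtful libraries together, remove a length trend or give the gene lists without 1 library were chosen after seeing the data. No paired analysis was possible because the columns carry no number that ties a library to one of another group. Groups of 2 or 3 libraries limit what could be called.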

Other observations

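Mrps6, a small subunit protein whose gene shares 159 bases of exon with the transporter gene Slc5a3 on the same strand in GRCm38, was named after its values were seen. It was at 132 FPKM in HF week 3 library 2 and at 141 in HF week 5 library 1, against 60.7 to 85.2 in Control week 19, and at 53.4, 65.4 and 70.8 in the other HF libraries. Reads of the shared exon could be counted to either gene. Mrps36, which is no longer counted among the ribosomal proteins, was at 41.2 and 144 FPKM in HF week 3 and at 155, 195 and 190 in HF week 5, against 180 to 245 in the controls.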
